A study of Homo sapiens with 18 samples.

Results

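Mitochondrial ribosomal protein genes carry the names MRPL (large subunit) and MRPS (small subunit). They were taken as all genes whose symbol is MRPL or MRPS followed by a number, with an optional letter, leaving out MRPS33, whose own fall after ATAD2 knockdown prompted the question of whether the other subunits follow it. Names came from probe sets annotated to 1 gene, and 139 probe sets gave 74 of the 19775 genes measured. Each gene was read from its probe set with the highest mean signal. By position in the ribosome, 50 of the 74 belong to the large subunit, counting MRPS30 and MRPS18A, and 24 to the small subunit.

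The series holds 18 Affymetrix arrays of 3 hepatocellular carcinoma cell lines, Hep3B, SNU449 and PLC (PLC/PRF/5). Each line was transfected with ATAD2 siRNA or with a non-targeting control siRNA by a lipid reagent, in 3 biological replicates per group and line; the labels name no other agent. ATAD2 encodes an ATPase with a bromodomain that binds chromatin. Some labels call the treated samples knockouts, but the protocol describes siRNA transfection, so residual ATAD2 is part of the design.

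The mitochondrial ribosome sits in the matrix and translates the few respiratory chain and ATP synthase subunits that mitochondrial DNA encodes. Its RNAs come from mitochondrial DNA, whereas every protein subunit is encoded in the nucleus, made in the cytosol and imported. Many subunits have a bacterial homologue and others exist only in mitochondrial ribosomes. MRPS33 belongs to the small subunit and has no bacterial homologue.

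The sequences upstream of 4 genes are shown because the results turn on them: MRPS33 itself, MRPL50 and MRPL16, which passed the test in both Hep3B and PLC, and MRPS10, the gene passing the test in Hep3B whose window held an ETS-type motif. MRPL10, which also passed in both lines, was not matched in the promoter table used here. Each is the 250 bases before the RefSeq start of the gene on GRCh38.p14, written 5′ to 3′ on the gene's strand, which is the minus strand for all 4. The windows are chr7:141014953-141015202 for MRPS33, chr9:101398619-101398868 for MRPL50, chr11:59810779-59811028 for MRPL16 and chr6:42217862-42218111 for MRPS10. Capitals mark a motif match on either strand.
MRPS33: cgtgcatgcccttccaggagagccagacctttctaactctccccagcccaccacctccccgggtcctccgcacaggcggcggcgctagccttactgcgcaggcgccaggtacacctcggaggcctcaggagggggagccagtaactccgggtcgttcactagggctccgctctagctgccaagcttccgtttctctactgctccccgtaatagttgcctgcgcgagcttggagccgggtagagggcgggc
MRPL50: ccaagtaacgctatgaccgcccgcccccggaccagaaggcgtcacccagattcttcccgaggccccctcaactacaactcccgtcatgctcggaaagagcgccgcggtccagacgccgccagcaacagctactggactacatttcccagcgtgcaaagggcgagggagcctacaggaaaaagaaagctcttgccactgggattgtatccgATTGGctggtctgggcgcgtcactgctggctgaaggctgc
MRPL16: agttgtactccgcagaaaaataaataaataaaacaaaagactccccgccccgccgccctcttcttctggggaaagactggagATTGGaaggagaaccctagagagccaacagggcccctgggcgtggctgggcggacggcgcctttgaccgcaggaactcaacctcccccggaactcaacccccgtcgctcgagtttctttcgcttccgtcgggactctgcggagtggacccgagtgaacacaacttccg
MRPS10: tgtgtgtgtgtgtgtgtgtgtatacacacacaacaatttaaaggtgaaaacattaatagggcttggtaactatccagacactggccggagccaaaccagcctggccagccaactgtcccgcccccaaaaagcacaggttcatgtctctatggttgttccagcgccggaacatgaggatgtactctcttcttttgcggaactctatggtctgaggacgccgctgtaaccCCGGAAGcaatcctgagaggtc

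Short motifs of factors known to bind ribosomal or mitochondrial gene promoters were searched on both strands in these windows, for the 66 of 74 genes matched in the RefSeq promoter table used here. The ETS-type motif CCGGAAG was present in 22 of 66 windows (33.3%), against 8.82% of 27305 RefSeq promoter windows of the same length and 12.02% of the 15382 windows of genes measured here. The NRF1 motif GCGCATGCG, the YY1 motif AAGATGGCG and the E2F motif (TTTCGCGC or TTTGGCGC) were each present in 3 of 66 windows (4.55%), against 1.78%, 0.641% and 0.996% of all windows. The E-box CACGTG was found in 9.09% against 6.49%, and CCAAT in 28.8% against 33.04%. No window of these genes held overlapping matches of different motifs, and 24 held no match. In the printed windows, the ETS-type match of MRPS10 began 22 bases before the start, the CCAAT matches of MRPL50 and MRPL16, read as ATTGG on the printed strand, began 40 and 168 bases before it, and MRPS33 had none of these letters. The median GC content was 60.4% in the windows of the 66 genes, against 58.0% in all windows. These are descriptions of letters, not of bound sites. In Hep3B, 1 of the 22 genes with the ETS-type motif passed the test described below, as did 8 of the 44 without it and MRPL10 among the 8 not matched, where 16.4% of all genes passed.

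Some facts of the arrays bear on what follows. On the normalised log2 scale the ATAD2 probe set was lower by 3.80 in Hep3B, 2.39 in SNU449 and 2.62 in PLC after ATAD2 siRNA, and all 4 ATAD2 probe sets were lower in every line. Arrays labelled SNU449 carried hepatocyte transcripts (ALB between 13.7 and 13.8) and little RB1 (4.27 to 4.75), whereas arrays labelled Hep3B had ALB between 2.85 and 3.53 and RB1 between 9.15 and 9.51. Hep3B is known as a hepatocyte-like line that lacks RB1, so the values run against these labels, and "Hep3B" and "SNU449" below mean arrays so labelled. Of 5 leukocyte and endothelial markers, PTPRC was at most 3.71 and CDH5 at most 3.67 in every line, VWF read 4.89 to 5.37, CD3E 5.74 to 6.36 and PECAM1 6.07 to 6.95. Comparisons within a line do not depend on its name. The arrays of a group correlated at 0.987 or more over all probe sets, and no arrays were identical.

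Signal at the 5′ relative to the 3′ end of the ACTB and GAPDH control probe sets, a sign of RNA integrity or labelling, set some arrays apart. It was -1.15 and -1.09 log2 units on PLC ATAD2 siRNA arrays 1 and 3, against -0.455 on array 2 and -0.595 to -0.436 on the PLC controls. Array 2 of the Hep3B ATAD2 siRNA group had -0.422, where arrays 1 and 3 of that group had -0.791 and -0.713, and the range was -0.784 to -0.649 on the Hep3B controls. In SNU449 the ATAD2 siRNA arrays lay between -0.409 and -0.307 and the controls between -0.373 and -0.300. The part of this measure in the results for PLC and Hep3B was examined only by leaving arrays out and by a covariate, as given below.

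MRPS33 was lower in all 3 lines. In Hep3B it read 7.91, 7.53 and 7.83 after ATAD2 siRNA, against 9.94, 10.01 and 9.98 with control siRNA (log2 signal). The difference was -2.22 ± 0.08 (SE, n = 3 per group), a 4.66-fold lower signal. In SNU449 it read 9.33, 9.26 and 9.30 after ATAD2 siRNA, against 10.03, 10.12 and 10.06 in controls, a difference of -0.78. In PLC it read 9.14, 9.07 and 9.20 after ATAD2 siRNA, against 9.92, 9.86 and 9.90 in controls, a difference of -0.75. Within each line every ATAD2 siRNA array was below every control array. These values are a description, since MRPS33 was known to fall when the genes were chosen, and it was read by a single probe set.

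None of the other 74 genes fell as far as MRPS33 in any line. Their median change was 0.0068 in Hep3B, against -0.019 for all genes measured, with 33 genes below 0 and 41 above. It was -0.013 in SNU449, against -0.016 for all genes, and -0.022 in PLC, against 0.012. These medians moved with the scaling. On the deposited values, without quantile normalization, they were 0.066 in Hep3B, 0.050 in SNU449 and -0.088 in PLC, against -0.019, 0.0011 and 0.0078 for all genes. With single arrays left out the Hep3B median lay between -0.016 and 0.029. In each line the lower bound of the 95% interval of all 74 genes lay above the change of MRPS33. The lowest such bounds were -0.56 for MRPL10 in Hep3B, -0.32 for MRPS18A in SNU449 and -0.49 for MRPL38 in PLC. This comparison with MRPS33 is a description, since MRPS33 was set apart for its fall and its own SE was not counted. The intervals of 72 genes in Hep3B and of all 74 in SNU449 and in PLC lay between -0.5 and 0.5. A lower array signal in bulk RNA cannot tell less RNA per cell from fewer cells with that RNA.

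**Figure D1:**
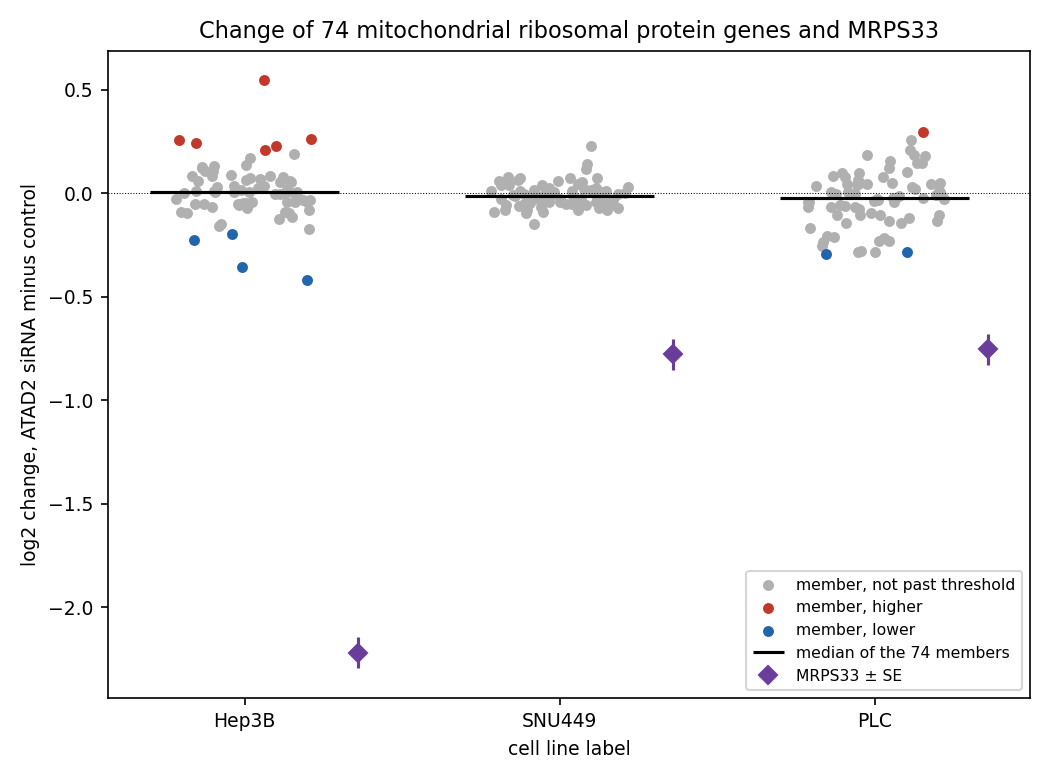
Log2 change after ATAD2 siRNA (ATAD2 siRNA minus control, mean of 3 arrays each) of the 74 genes, 1 point per gene, in each line, with their median as a bar and MRPS33 ± SE as a diamond. Red and blue points passed an adjusted p of 0.05 as higher or lower: 10 genes in Hep3B, 0 in SNU449 and 3 in PLC, while MRPS33 lay at -2.22, -0.78 and -0.75.

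In Hep3B, 10 of the 74 genes passed the test, a limma linear model with Benjamini-Hochberg adjustment over all 19775 genes at 0.05. That is 13.5%, against 16.4% of all genes. 6 were higher, against 8.68% of all genes called higher, and 4 were lower, against 7.74%. Signals of the ATAD2 siRNA and control arrays did not overlap for 8 genes that were higher (10.8%) and 9 that were lower (12.2%). Of all genes, 15.5% and 17.3% were so separated. The share called was thus no higher than that of all genes. None of the 74 genes was among the dimmest 30%. With those dim genes left out, 10 of the 74 passed again, against 27.19% of the genes kept. The split by direction moved with the scaling: 8 genes were higher and 2 lower on the deposited values, and 10 were higher and 2 lower with each array centred on its median, where 16.46% and 16.81% of all genes passed. Without ATAD2 siRNA array 2, the array that stood apart in 5′ signal, 11 genes passed, 8 higher and 3 lower. Of all genes, 15.05% passed there.

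MRPL10 had the largest fall in Hep3B. It encodes the homologue of bacterial L10, which anchors the stalk where translation factors dock. It read 9.13, 9.04 and 8.97 after ATAD2 siRNA, against 9.49, 9.42 and 9.50 with control siRNA. The groups did not overlap, and the change was -0.42 ± 0.07 (SE), a 1.34-fold lower signal, with an adjusted p of 0.000291. MRPL12, named here after its values were seen, encodes the factor-recruiting part of the same stalk. Its differences were -0.041 in Hep3B, -0.072 in SNU449 and -0.28 in PLC, each without overlap, and none passed the test. MRPS6, a homologue of bacterial S6 in the small subunit, read 9.93, 10.08 and 9.86 after ATAD2 siRNA, against 10.31, 10.33 and 10.29 in controls. Its change was -0.35 ± 0.06, with an adjusted p of 0.000522.

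The other genes that fell in Hep3B had smaller changes. MRPL24, the homologue of bacterial L24, read 9.45, 9.29 and 9.31 after ATAD2 siRNA, against 9.47, 9.64 and 9.63 in controls, a change of -0.23. Its groups lay close together at their nearest arrays and did not overlap. MRPL16, the homologue of bacterial L16, which lies near the peptidyl transferase centre, read 9.06, 9.05 and 9.01 after ATAD2 siRNA, against 9.28, 9.21 and 9.23 in controls, a change of -0.20. The call of MRPL24 was lost without control array 2 or 3 or ATAD2 siRNA array 2 or 3 (adjusted p between 0.0604 and 0.0873). It was also lost on the deposited values (-0.15, adjusted p 0.124) and with centring (-0.12, adjusted p 0.298). That of MRPL16 was lost without control array 1 or 3 or ATAD2 siRNA array 3 (adjusted p between 0.0509 and 0.0763), on the deposited values (-0.12, adjusted p 0.267) and with centring (-0.089, adjusted p 0.524).

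MRPL50 had the largest rise. It is a large-subunit protein without a bacterial homologue, and it read 9.24, 9.03 and 9.27 in Hep3B after ATAD2 siRNA, against 8.55, 8.63 and 8.71 with control siRNA. The lowest ATAD2 siRNA array was above the highest control array, and the change was 0.55 ± 0.07 (SE), a 1.46-fold higher signal, with an adjusted p of 3.38e-05. A second probe set of MRPL50 rose by 0.51 in Hep3B. A dim further probe set differed by 0.19 and did not pass.

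MRPL34, MRPL18 and MRPL36, large-subunit proteins with bacterial homologues, were also higher in Hep3B. MRPL34 read 8.77, 8.68 and 8.59 after ATAD2 siRNA, against 8.44, 8.39 and 8.41 in controls, a change of 0.26. MRPL18 read 9.74, 9.73 and 9.73 after ATAD2 siRNA, against 9.58, 9.47 and 9.39 in controls, a change of 0.26. MRPL36 read 10.43, 10.35 and 10.26 after ATAD2 siRNA, against 10.11, 10.14 and 10.10 in controls, a change of 0.23. None of these groups overlapped.

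From the small subunit, MRPS10 (homologue of bacterial S10) and MRPS25 (mitochondrial only) were higher in Hep3B. MRPS10 read 9.57, 9.31 and 9.56 after ATAD2 siRNA, against 9.20, 9.20 and 9.31 in controls, a change of 0.24. MRPS25 read 8.43, 8.47 and 8.43 after ATAD2 siRNA, against 8.29, 8.18 and 8.22 in controls, a change of 0.21. The MRPS10 groups overlapped slightly at their nearest arrays, and those of MRPS25 were apart. MRPS10 lost its call without control array 1 or 2 or ATAD2 siRNA array 1 or 3 (adjusted p between 0.0994 and 0.126). With the mean of all probe sets its change was 0.13 and did not pass (adjusted p 0.294), and the other MRPS10 probe sets differed by 0.082 and 0.075. MRPS25 lost its call without control array 2 or 3 (adjusted p 0.0770 and 0.0539) and with the mean of all probe sets (0.16, adjusted p 0.134).

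**Figure D2:**
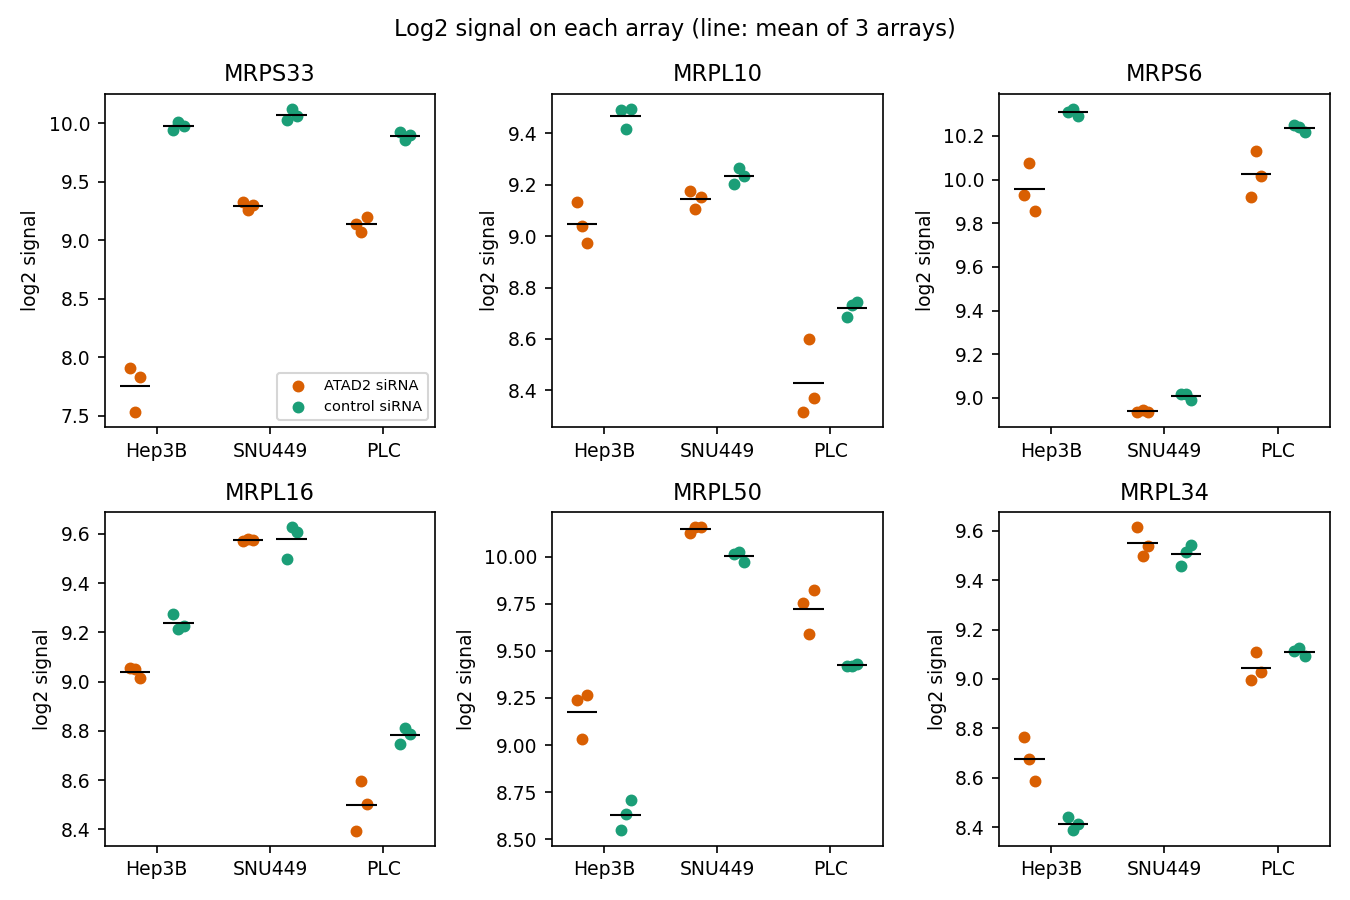
Log2 signal on each array of MRPS33 and of 5 other subunits in the 3 lines, ATAD2 siRNA arrays left of control arrays, with a line at the mean of 3 arrays. MRPS33 was lower in each line, MRPL10 and MRPL16 passed the test as lower in Hep3B and PLC, MRPL50 as higher in both, and MRPS6 (lower) and MRPL34 (higher) in Hep3B.

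By subunit, 4 of 50 large-subunit genes were higher and 3 lower in Hep3B, with a median change of 0.00031, where 8.68% of all genes were higher and 7.74% lower. Of the 24 small-subunit genes, 2 were higher and 1 lower, with a median of 0.0092. Genes were also divided by number into 44 with a bacterial homologue and 29 without, MRPL58 being in neither. This rule is approximate, since MRPL47, for one, is known as the homologue of bacterial L29 but is numbered with those without. In Hep3B, 4 of the 44 were higher and 4 lower, with a median of -0.016. Of the 29, 2 were higher and none lower, with a median of 0.029. Whether these divisions differ was not tested.

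In SNU449, 0 of the 74 genes passed the limma test in either direction, against 0.147% of all genes called higher, 0.111% called lower and 0.258% in all. At an unadjusted p under 0.05 there was 1, MRPS10, against 10.3% of all genes. MRPS10 read 8.95, 8.87 and 8.98 after ATAD2 siRNA, against 8.69, 8.70 and 8.71 in controls. That is a difference of 0.23 with no overlap, and its adjusted p was 0.228. The other MRPS10 probe sets differed by 0.017 and -0.032 in SNU449. Signals of 5 genes were separated upwards (6.76%) and of 13 downwards (17.6%), against 8.76% and 13.2% of all genes. MRPL10 and MRPS6 were among the 13, with differences of -0.088 and -0.068. MRPL50 and MRPL18 were among the 5, with differences of 0.14 and 0.077.

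In PLC, 3 of the 74 genes passed the test (4.05%), against 4.57% of all genes. MRPL50 was higher, where 2.34% of all genes were called higher, and MRPL10 and MRPL16 were lower, where 2.24% were called lower. On the deposited values 1 gene was higher and 9 lower, and with centring 0 were higher and 9 lower. Of all genes, 5.08% and 4.81% passed in these settings, in either direction. MRPL50 read 9.75, 9.59 and 9.82 after ATAD2 siRNA, against 9.42, 9.42 and 9.43 with control siRNA. Its change was 0.30 ± 0.07 (SE), with an adjusted p of 0.0272 and no overlap. MRPL10 read 8.32, 8.60 and 8.37 after ATAD2 siRNA, against 8.69, 8.73 and 8.75 in controls. Its change was -0.29 ± 0.07, with an adjusted p of 0.0243. MRPL16 read 8.40, 8.60 and 8.50 after ATAD2 siRNA, against 8.75, 8.81 and 8.79 in controls. Its change was -0.28 ± 0.06, with an adjusted p of 0.0116. In all 3 genes ATAD2 siRNA array 2 lay nearest the controls. Signals of 6 genes were separated upwards in PLC (8.11%) and of 16 downwards (21.6%), against 10.8% and 9.11% of all genes. The downward share was thus above that of all genes, and its cause was not tested.

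These PLC calls moved with the arrays that stood apart in 5′ signal. Without ATAD2 siRNA array 2, 22 genes passed (8 higher and 14 lower, where 16.3% of all genes passed). Without array 1 or without array 3 a single gene passed, where 2.412% and 2.999% of all genes did. Without both, only array 2 was left in the group, so no count of genes passing is given. With the 5′ to 3′ signal as a covariate 0 genes passed, where 1.93% of all genes did. The changes with the covariate were -0.18 for MRPL10, -0.20 for MRPL16 and 0.16 for MRPL50. On array 2 by itself, MRPL10 changed by -0.12, MRPL16 by -0.19 and MRPL50 by 0.16. The count of genes passing was also 1 without PLC control array 2 or 3 (against 2.03% and 2.27% of all genes). It was 7 without Hep3B ATAD2 siRNA array 2 (against 5.78%), which entered the shared estimate of the spread. With the lines fitted separately it was 0, where 0.0759% of all genes passed. The second MRPL50 probe set changed by 0.048 in PLC and did not pass.

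**Figure D3:**
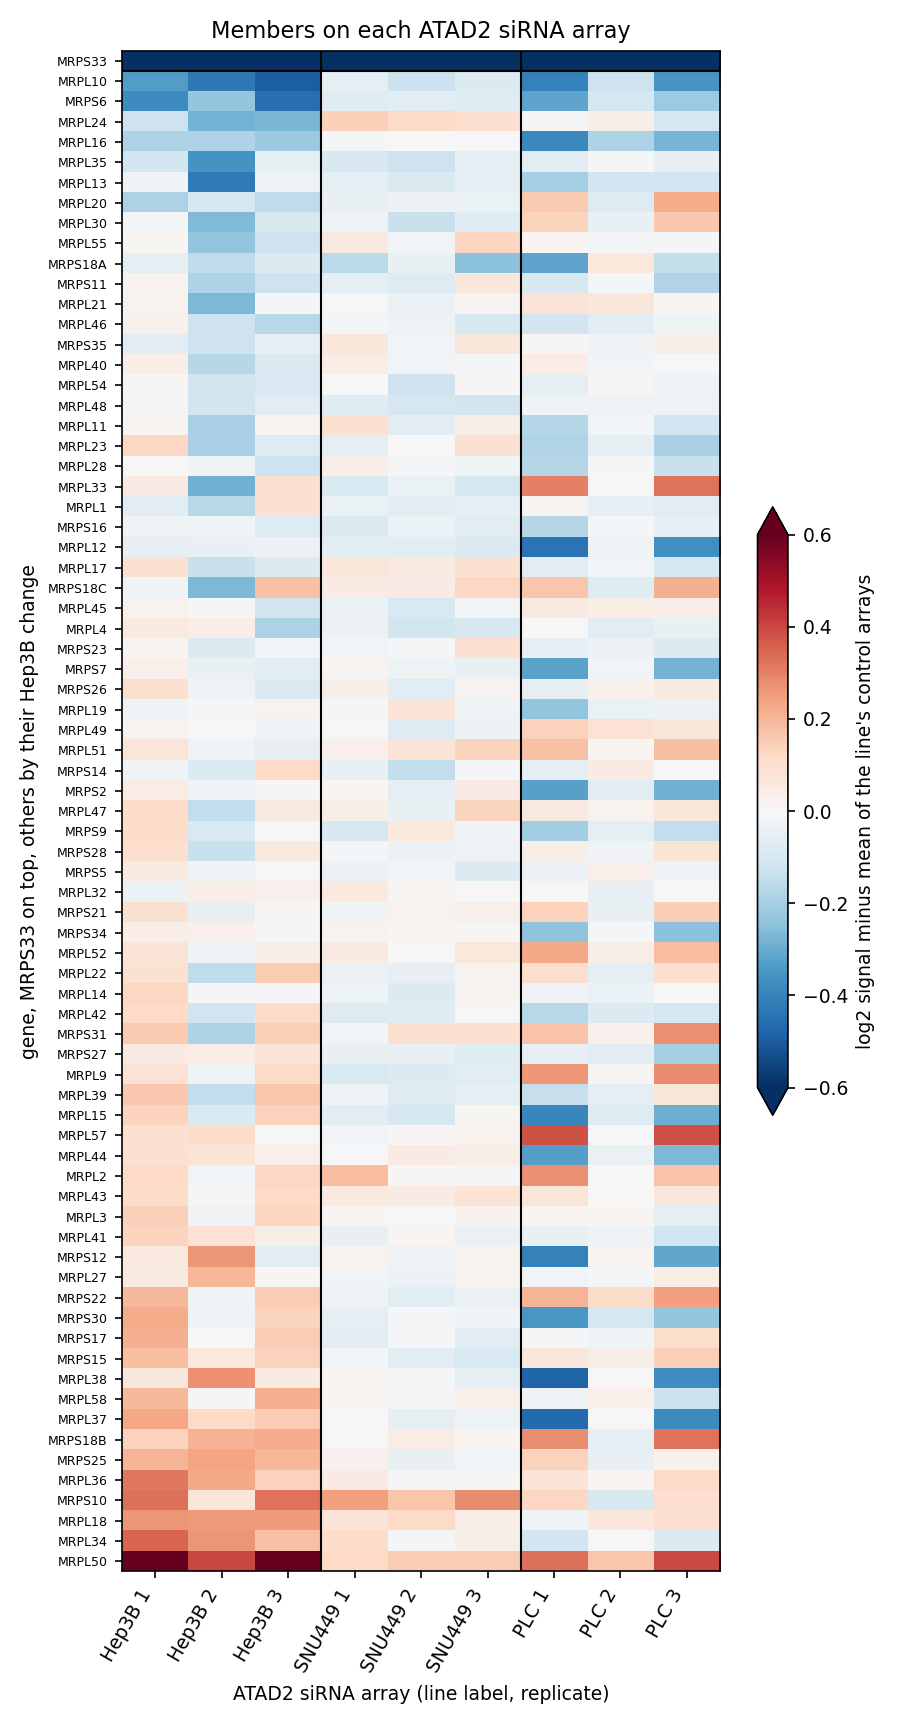
Log2 signal of MRPS33 (top) and the 74 genes (ordered by their Hep3B change) on each of the 9 ATAD2 siRNA arrays, minus the mean of the line's 3 control arrays; colours are capped at 0.6. MRPS33 is low on all 9 arrays, whereas the other genes are mixed, and PLC arrays 1 and 3, with a 5′ minus 3′ signal of -1.15 and -1.09, share a pattern that is faint on PLC array 2, with -0.455.

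MRPL10, MRPL16 and MRPL50 passed in both Hep3B and PLC and in the same direction. They were all 3 genes called in PLC and 30% of the 10 called in Hep3B. Both lines were tested with the same estimate of each gene's spread, so the calls are not independent. Among all genes, 1.21% were called in both lines in the same direction, which is 26.5% of the PLC calls and 7.39% of the Hep3B calls. MRPS6, called in Hep3B, read 9.92, 10.13 and 10.02 in PLC after ATAD2 siRNA, against 10.25, 10.24 and 10.22 in controls. Those groups did not overlap, and the difference of -0.21 did not pass, with an adjusted p of 0.0544. Differences pointed the same way in all 3 lines for 15 genes downwards and 13 upwards, 20.3% and 17.6% of the 74, against 17.1% and 13.96% of all genes.

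The change differed between lines for MRPL24, MRPL34 and MRPL50 by an F test over the interaction contrasts (4.05%, against 9.18% of all genes). MRPL24 changed by 0.12 in SNU449 and -0.23 in Hep3B, a difference of 0.35 ± 0.09 (SE). MRPL34 changed by -0.066 in PLC and 0.26 in Hep3B, a difference of -0.33 ± 0.08. MRPL50 changed by 0.14 in SNU449 and 0.55 in Hep3B, a difference of -0.41 ± 0.10. By single pairs of lines, 3 genes differed between SNU449 and Hep3B (6.14% of all genes), 3 between PLC and Hep3B (9.7%) and none between SNU449 and PLC (0.202%). The pairs added MRPL10 (SNU449 minus Hep3B, 0.33 ± 0.09) and, for PLC minus Hep3B, MRPL37 (-0.45 ± 0.12) and MRPS30 (-0.34 ± 0.09). These comparisons share the Hep3B arrays. The F test count was small and moved with single arrays, and the share of all genes passing moved as well. The count was 20 without PLC ATAD2 siRNA array 2 (against 18.43% of all genes) and 5 without Hep3B ATAD2 siRNA array 2 (9.603%). It was 0 without Hep3B control array 2 (6.149%) or any of the PLC controls (7.504% to 8.076%). It was 1 without any of the others (6.321% to 8.551%) save PLC ATAD2 siRNA array 3.

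Of the 74 genes, 37 had further probe sets, 65 in all. Their change had the sign of the main probe set for 47 of 65 in Hep3B, 35 in SNU449 and 39 in PLC. With every probe set tested by itself, 9 of 139 were higher and 3 lower in Hep3B, a share of 8.63% against 8.86% of all probe sets. In SNU449 none passed, against 0.0439%. In PLC 1 was higher and 3 lower, against 3.44%. A further probe set passed in Hep3B for MRPL2 (0.29), MRPS12 (0.36) and MRPS15 (0.23), where the main probe set did not pass. In PLC the same held for MRPS14 (-0.35). No further probe set passed in the direction opposite to a main probe set that had passed.

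Genes that act with the mitochondrial ribosome were read from lists, whose counts stand against 8.68% of all genes higher and 7.74% lower in Hep3B. Of 4 measured subunits with other names, PTCD3, a small-subunit protein, was higher in Hep3B by 0.14 with an adjusted p of 0.0480. DAP3, CHCHD1 and GADD45GIP1 had differences of 0.027, -0.049 and 0.055 there and did not pass. Of 28 assembly factors, 7 were higher and 2 lower in Hep3B (32.1%, against 16.4% of all genes), with a median change of 0.055 against -0.019. MTG2, a GTPase of large-subunit assembly, read 8.44, 8.01 and 8.17 after ATAD2 siRNA, against 7.64, 7.64 and 7.62 in controls, a change of 0.57 with no overlap. RPUSD4, a pseudouridine synthase acting on mitochondrial RNA, rose by 0.36. TFB1M, which methylates the small ribosomal RNA, rose by 0.32. RBFA, a small-subunit assembly factor, rose by 0.25. The 2 that were lower were MTERF3 (-0.23) and DDX28 (-0.21).

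Of 14 measured translation factors, 3 were higher in Hep3B and none lower (21.4%, against 16.4% of all genes), with a median of 0.019. They were MTRFR, a release factor homologue (0.48), MTFMT, which formylates the initiator tRNA (0.40), and GUF1, a GTPase of elongation (0.30). Of 17 mitochondrial aminoacyl-tRNA synthetases, PARS2 (0.34) and EARS2 (0.32) were higher and WARS2 (-0.46) and NARS2 (-0.27) lower in Hep3B (23.5%, against 16.4%), with a median of 0.028. None of 10 genes of mitochondrial transcription and DNA replication passed in any line, nor did any of 53 cytosolic ribosomal protein genes, whose median change in Hep3B was 0.023. Quantile normalization gave RPL41 in Hep3B and RPLP1 in PLC equal group means, so that step may hide changes in such genes. The largest of their differences in PLC were those of RPL27A (0.67), RPLP2 (0.52) and RPL36A (-0.45). In PLC, the assembly factors C1QBP (-0.32), DDX28 (-0.30) and OXA1L (-0.26) were lower (10.7% of the list, against 4.57% of all genes). Among the synthetases NARS2 (-0.29) was lower there and YARS2 (0.24) higher (11.8%, against 4.57%). The lists were not examined under the alternative settings. Whether these PLC calls depend on ATAD2 siRNA arrays 1 and 3, which stood apart in 5′ signal, was not tested. With the 5′ minus 3′ covariate, 1.93% of all genes passed in PLC. In SNU449 no gene of these lists passed the limma test, where 0.258% of all genes did.

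**Figure D4:**
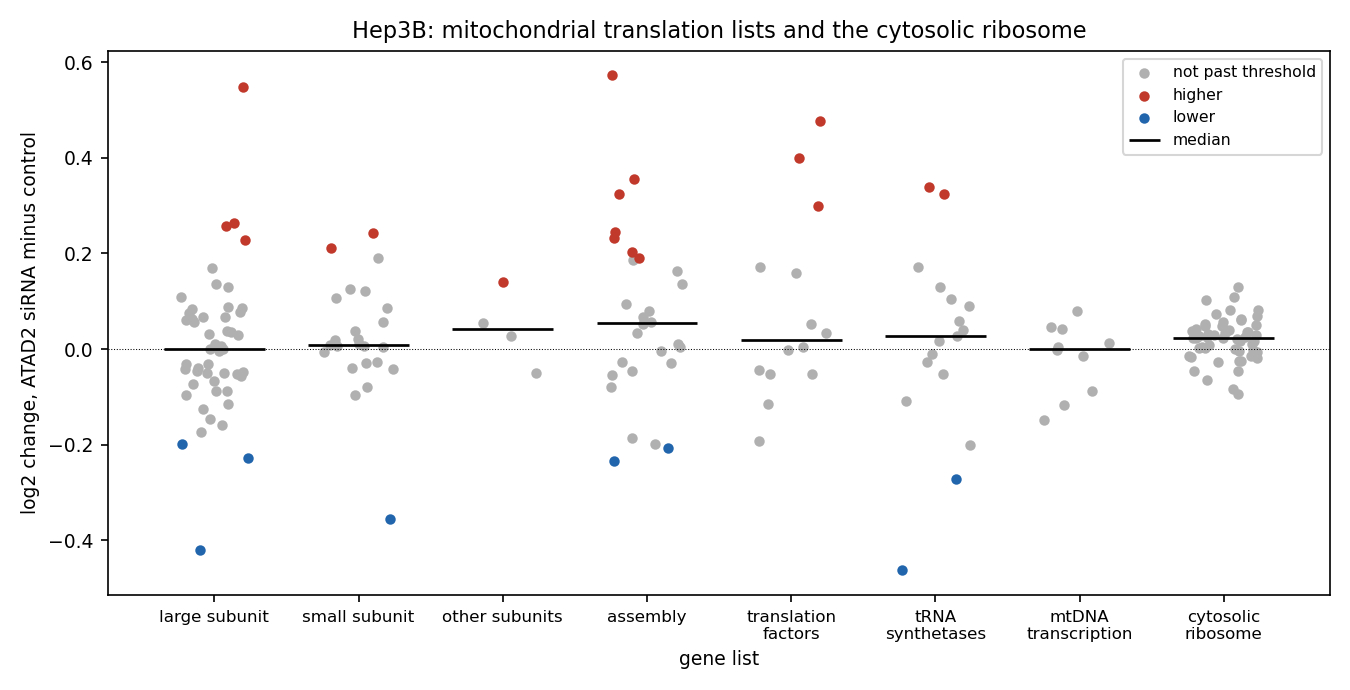
Log2 change in Hep3B (ATAD2 siRNA minus control) of the large- and small-subunit genes, the other subunits, 5 related lists of mitochondrial or cytosolic translation and mitochondrial transcription, 1 point per gene with the list median as a bar; red and blue points passed as higher or lower. The medians lay between 0.00031 and 0.055 and no cytosolic ribosomal gene passed, with changes from -0.094 to 0.13.

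Without knockdown, the control arrays of the 3 lines differed by more in these genes, from -1.68 to 1.87 for SNU449 minus Hep3B, than the ATAD2 siRNA arrays did from their controls, from -0.42 to 0.55 in Hep3B. A difference was called at an adjusted p under 0.05 and at least 1 log2 unit. The deposited values had the look of lines normalised separately (sorted columns differed by up to 0.155 log2 units within a line and up to 1.51 between lines), so levels across lines rest on the common quantile normalization applied here. Without that step, centring each array on its median moved the median difference of all genes by 0.65 for PLC minus Hep3B and by -0.71 for SNU449 minus PLC. The deposited values moved it the other way, by -0.60 and 0.75, and by 0.17 for SNU449 minus Hep3B.

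SNU449 minus Hep3B gave 6 genes higher, against 9.24% of all genes, and 4 lower, against 10.5%. MRPL11, the homologue of bacterial L11 at the stalk base, read 10.85, 10.91 and 10.90 on SNU449 controls, against 8.96, 9.06 and 9.03 on Hep3B controls. The difference was 1.87 ± 0.07 (SE), and the lines did not overlap. MRPL50 (1.37), MRPS14 (1.27), MRPL54 (1.13), MRPL34 (1.09) and MRPL9 (1.05) were also higher in SNU449. MRPL33, the homologue of bacterial L33, read 10.17, 10.10 and 10.14 on SNU449 controls, against 11.77, 11.82 and 11.84 on Hep3B controls, a difference of -1.68. MRPL15 (-1.39), MRPS6 (-1.30) and MRPL17 (-1.18) were lower as well. On the deposited values 8 genes were higher and 4 lower, and with centring 3 were higher and 5 lower, since the differences of MRPL54 (0.99), MRPL34 (0.95) and MRPL9 (0.88) then missed 1 log2 unit.

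PLC minus Hep3B gave 4 genes higher, against 9.58% of all genes, and 1 lower, against 8.83%. On the deposited values 6 were higher and 0 lower, and with centring 61 were higher and 0 lower, where 43.03% and 41.65% of all genes were called. MRPL48, a large-subunit protein without a bacterial homologue, read 9.84, 9.91 and 9.88 on PLC controls, against 8.40, 8.42 and 8.43 on Hep3B controls, a difference of 1.46. MRPL46 (1.31), MRPS35 (1.18) and MRPL19 (1.04) were higher and MRPL47 (-1.04) lower in PLC. SNU449 minus PLC gave 3 genes higher, against 8.63% of all genes, and 6 lower, against 10.5%. With centring 0 were higher and 58 lower, where 43.37% of all genes were called. MRPL11 (1.62), MRPL47 (1.39) and MRPS14 (1.20) were higher in SNU449. MRPL17 (-1.55), MRPL15 (-1.52), MRPS10 (-1.30), MRPS6 (-1.23), MRPL48 (-1.13) and MRPS11 (-1.11) were lower. Centring in place of quantile normalization turned the direction of MRPL47 in PLC minus Hep3B (0.32), and of MRPL47 (-0.18) and MRPS14 (-0.34) in SNU449 minus PLC. It left MRPL11 at 0.079 in SNU449 minus PLC, no longer called. On the common scale the median of the 74 genes was 0.19 in SNU449 minus Hep3B, 0.27 in PLC minus Hep3B and -0.033 in SNU449 minus PLC, against -0.016, -0.025 and 0.013 for all genes. On the deposited values the medians of the 74 were 0.28, 0.37 and -0.026, against 0.15, -0.62 and 0.76 for all genes, and with centring 0.074, 1.62 and -1.48, against -0.059, 0.62 and -0.69. These 3 comparisons share control arrays.

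**Figure D5:**
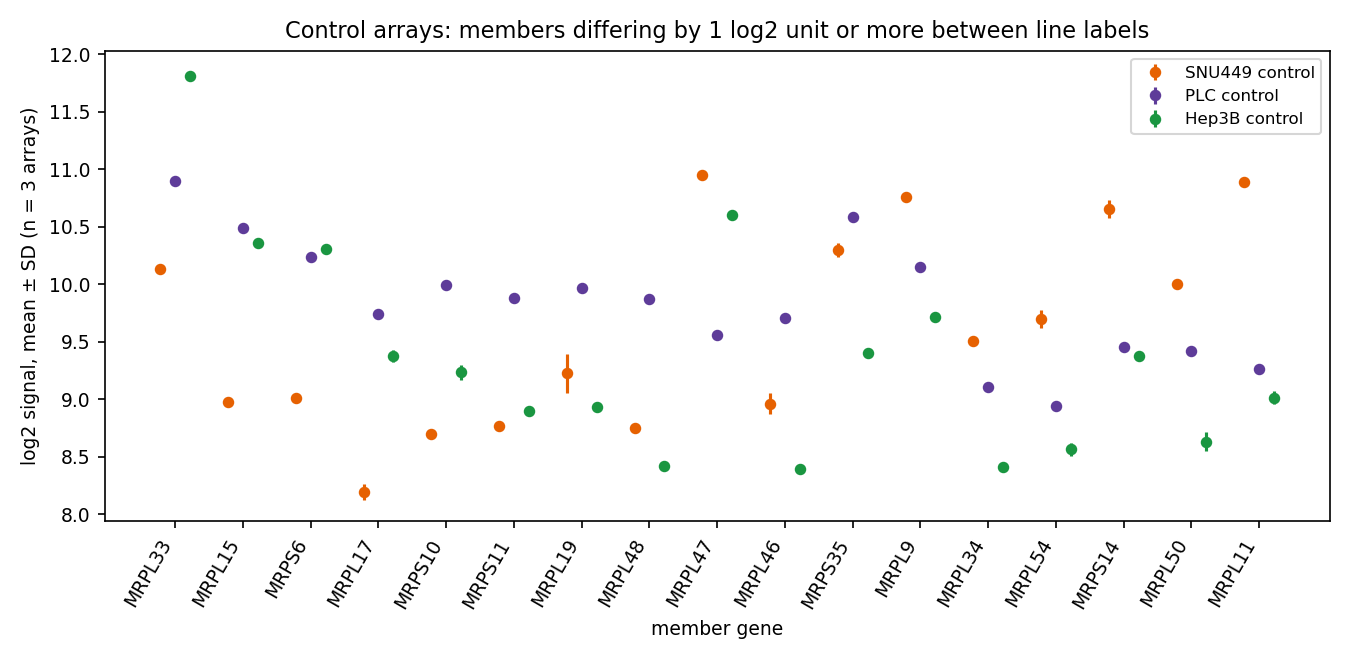
Log2 signal of the 17 genes that differed by at least 1 log2 unit between the control arrays of any pair of lines, as mean ± SD of 3 arrays, with SNU449, PLC and Hep3B side by side. From left to right the genes run from lower to higher in SNU449 relative to Hep3B, from -1.68 for MRPL33 to 1.87 for MRPL11; with median centring, MRPL47 turned direction in both comparisons with PLC and MRPS14 in SNU449 minus PLC.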

How the data were processed

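RNA from 18 cultures of 3 established cell lines was hybridised to 1 Affymetrix array each. The deposited table holds 54675 probe sets as log2 signal, judged from its range of 1.33 to 13.97; per the submitters' processing notes limma was used; its version, background correction and normalization: not given in the sources used here. Groups came from the sample labels. Columns were quantile normalised over all arrays. The platform annotation named 1 gene for 41097 probe sets, with symbols updated from RefSeq (GRCh38.p14). Probe sets of several genes were left out, which removed MRPL53 and MRPS24. The probe set with the highest mean stood for each gene, and none of the 74 genes was among the dimmest 30%.

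A linear model with 1 mean per group was fitted by lmFit and eBayes (limma 3.58.1, R 4.3.3; residual degrees of freedom 12, prior 4.01; two-sided) and tested on simulated data. P-values were adjusted over all 19775 genes (Benjamini-Hochberg, 0.05); with every probe set by itself, over all probe sets. An exact permutation test of 3 against 3 arrays cannot go below p = 0.1, so single genes were not tested that way. P-values measure the spread between arrays called biological replicates. Replicate numbers were not taken as pairs: same-numbered arrays deviated together with correlations of -0.12 to 0.093. In PLC these were 0.056 to 0.093, and each was the highest for its ATAD2 siRNA array. Alternatives were the deposited values, quantile normalization within lines, median centring, no dim genes, mean probe sets, separate fits, a trended robust prior, a replicate block, the 5′ minus 3′ covariate and leaving out arrays; leaving out PLC arrays 1 and 3 together and testing every probe set were chosen after seeing the data. The number of arrays limits the precision.

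The genes and lists were chosen with earlier results of these data known. Genes named were up to 10 rises and 10 falls per line, up to 10 by the F test, up to 6 per direction between controls, up to 4 per related list, and MRPS33 and ATAD2; a part of the rule on highest and lowest levels was not used, since levels of different probe sets are not comparable.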

Additional observations from a re-analysis of the deposited data

Results flagged for a closer look

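Several changes after ATAD2 siRNA differed between lines by an interaction test. MRPL24 differed by 0.346 ± 0.087 between SNU449 and Hep3B (adjusted p 0.0253), with a change of 0.12 in SNU449 and -0.23 in Hep3B. MRPL50 differed by -0.406 ± 0.098 between SNU449 and Hep3B (adjusted p 0.0199), and its change was above 0 in both. MRPL10 differed by 0.332 ± 0.094 between SNU449 and Hep3B (adjusted p 0.0475), but its F test over the lines did not pass (adjusted p 0.0760). MRPL34 differed by -0.329 ± 0.078 between PLC and Hep3B (adjusted p 0.0143). MRPL37 differed by -0.45 ± 0.12 (adjusted p 0.0319) and MRPS30 by -0.338 ± 0.095 (adjusted p 0.0340) between PLC and Hep3B. For both, the F test did not pass, at adjusted p 0.0696 and 0.0728. MRPL37 read 9.27, 9.74 and 9.35 in PLC after ATAD2 siRNA, against 9.75, 9.73 and 9.73 in controls, so arrays 1 and 3 lay below the controls and array 2 lay among them. Its change was -0.28 in PLC and 0.17 in Hep3B, so both lines entered the difference. PLC arrays 1 and 3 had a 5′ minus 3′ signal of -1.15 and -1.09, against -0.455 on array 2, and the part of that measure in this difference was not tested. All of these rest on 3 arrays per group, and the SNU449 and PLC differences share the Hep3B arrays.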

How the results depend on the processing

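In Hep3B the count of genes passing stayed within 1.5 times of 10 under the alternatives other than the separate fit of each line. That fit gave 5, where 12.3% of all genes passed. Single arrays left out gave 7 to 13, where 11.9% to 18.9% of all genes passed. MRPL10, MRPS6, MRPL18, MRPL34 and MRPL50 passed there in all 27 alternatives, and MRPL36 in 26 of them. The PLC count of 3 was 10 on the deposited values (against 5.08% of all genes) and 8 with quantile normalization within lines (6.05%). It was 9 with centring (4.81%), 9 without dim genes (6.75%) and 13 with a trended robust prior (7.42%). Of these, 9, 7, 9, 7 and 9 genes were lower. The count was 1 with a replicate block (2.225%), 0 with the 5′ minus 3′ covariate (1.93%) and 0 with separate fits (0.0759%). Single arrays left out gave 1 to 22, where 2.03% to 16.3% of all genes passed. MRPL10 lost its PLC call in 8 of 28 alternatives, MRPL16 in 3 and MRPL50 in 11. The SNU449 count was 0 throughout. The count differing between lines was 8 on the deposited values (against 11.1% of all genes), 16 with centring (13.0%) and 7 without dim genes (17.3%). It was 8 with the trended prior (13.0%) and 0 with a replicate block (5.24%). With single arrays left out it was 0 to 20, where 6.15% to 18.4% of all genes passed. Between controls, centring gave 61 genes for PLC minus Hep3B and 58 for SNU449 minus PLC; single arrays left out gave 5, 9 and, for SNU449 minus Hep3B, 10 to 11. The median change, on the deposited values and with centring, was 0.066 and 0.10 for Hep3B, 0.050 and 0.090 for SNU449, and -0.088 and -0.11 for PLC. In PLC it was -0.031 with mean probe sets, -0.039 with the covariate and -0.016 without arrays 1 and 3. With single arrays left out it ranged from -0.016 to 0.029 in Hep3B, -0.034 to -0.0011 in SNU449 and -0.026 to -0.0046 in PLC. The causes were not tested. None of the 10 changes called in Hep3B or the 3 in PLC turned direction in any alternative run. The replicate block in Hep3B gave 8 genes and ended the calls of MRPL24 and MRPS10, and in PLC those of MRPL10 and MRPL50. In PLC each ATAD2 siRNA array deviated most like the control of its own number, with low correlations of 0.056 to 0.093. In Hep3B and SNU449 those of same-numbered arrays ran from -0.12 to 0.049. The change of MRPS33 ranged from -2.29 to -2.03 in Hep3B, -0.80 to -0.62 in SNU449 and -0.90 to -0.72 in PLC over the alternatives. With 3 arrays per group, signals of dim probe sets limit what can be detected, and a miss of the threshold does not show that a gene was unchanged.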
